A study of Mus musculus with 24 samples.

Results

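*Spry1*, *Spry2*, *Spry4*, *Spred1*, *Spred2*, *Spred3* and *Il17rd*, which encode feedback inhibitors of receptor tyrosine kinase and ERK signalling, were followed across soft and stiff substrates after removal of PD03 or of CHIRON. They were chosen by symbol, with earlier results of these data known. All 7 were found among the 35022 genes counted in PD03 removal and among the 48709 counted in CHIRON removal. RNA-seq had been performed on wild-type E14 mESCs (mouse embryonic stem cells of strain 129) that were kept on soft or stiff StemBond hydrogels coated with fibronectin. For 12 h the cells were in 2i + LIF, a medium with 1 µM PD03 (an inhibitor of MEK, the kinase that activates ERK), 3 µM CHIRON (an inhibitor of GSK3, which holds β-catenin low) and the cytokine LIF. In PD03 removal, the groups were soft and stiff at 0 h in 2i + LIF, and soft and stiff at 2 h and at 12 h after the change to CHIRON + LIF. In CHIRON removal, the groups were soft and stiff at 0 h in 2i + LIF, and soft and stiff at 2 h and at 12 h after the change to PD03 + LIF. Each group had 2 libraries, except that stiff at 2 h after CHIRON removal had 1, since its other library held 171333 counts in all and was left out. The 12 libraries of PD03 removal held between 16222196 and 26442153 counts, and the 11 of CHIRON removal between 19393787 and 31111260. The legends of the study speak of experiments in triplicate, whereas 2 libraries per group were deposited. No source says whether these came from separate cultures. The p-values thus rest on a spread between libraries that was estimated over all groups of a fit and may be technical. Time after removal and hours on the hydrogel cannot be told apart.

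The cells were checked against their label. The 6 markers of embryonic stem cells (*Pou5f1*, *Sox2*, *Nanog*, *Zfp42*, *Esrrb* and *Tfcp2l1*) summed to between 5481 and 6971 CPM (read counts scaled to library size and normalised for library composition) in PD03 removal and between 4530 and 4959 CPM in CHIRON removal, with *Tfcp2l1* the most abundant. The 5 fibroblast markers summed to at most 8.20 CPM, and *Col3a1* had 5 counts or fewer in each library. The 4 markers of primitive endoderm summed to at most 6.01 CPM and the 3 neural markers to at most 32.3 CPM. The 5 trophoblast markers summed to between 50 and 81.5 CPM, most of it from *Tfap2c*. *Cdx2* had between 8.59 and 20.6 CPM in PD03 removal and at most 6.67 CPM in CHIRON removal. *Gata3* had between 6.07 and 24.4 CPM in CHIRON removal and 7 counts or fewer in each library of PD03 removal. *Hand1* had 9 counts or fewer in each library.

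Growth factors such as FGF4 activate receptor tyrosine kinases, which signal through Ras, Raf and MEK to ERK, and ERK drives the transcription of inhibitors that act back on this cascade. Sprouty proteins (*Spry1*, *Spry2* and *Spry4*) act between the receptor and Raf, Spred proteins (*Spred1*, *Spred2* and *Spred3*) bring the Ras GTPase-activating protein neurofibromin to the membrane, and *Il17rd* encodes Sef, a membrane protein that restrains FGF receptor and ERK signalling. In mESCs, autocrine FGF4 and ERK prime cells for differentiation, which PD03 in 2i + LIF prevents, whereas CHIRON raises β-catenin and relieves repression by Tcf7l1.

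In GRCm38, *Spry1* lay at chr3:37639947-37644598 on the plus strand and *Spry2* at chr14:105891947-105896819 on the minus strand. *Spred1* lay at chr2:117121374-117182279 (plus), *Spred2* at chr11:19924375-20024026 (plus), *Spred3* at chr7:29158829-29170411 (minus) and *Il17rd* at chr14:27038941-27107286 (plus). Exons of *Spry1* overlap those of the antisense gene *Gm42922*, and exons of *Spred3* overlap those of the antisense gene *Ggn*. Whether reads were counted by strand is not known, so the counts of *Spry1* and *Spred3* are uncertain.

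Promoters are shown for *Spry1*, *Spry2*, *Spred1* and *Il17rd*, which were higher 12 h after PD03 removal and lower 12 h after CHIRON removal, and for *Spred3*, whose window held a motif. RefSeq windows of 250 bases before the annotated start were found for 6 of the 7 members, all but *Spry4* (build GRCm38.p6). They were searched on both strands for the motif of ETS factors (CCGGAAG, in 6.91% of 32851 promoter windows), the cAMP response element (TGACGTCA, 1.55%), the AP-1 site (TGANTCA, 6.75%), the TCF/LEF site (CTTTGAT, 3.21%) and the EGR1 site (GCGTGGGCG, 0.536%). The CArG box of SRF (1.47% of windows) and the octamer of the repressor Capicua in its forms TGAATGAA (1.08%) and TCAATGAA (0.642%), which end alike, were searched as well. Among the 6 members these letters were found in *Spry2*, which holds the latter form of the Capicua octamer on the opposite strand, with its first base 54 bases before the start, and in *Spred3*, which holds the former 10 bases before the start. Capitals mark the octamer, and each sequence runs 5′ to 3′ on the strand of its gene. *Spry1* (chr3:37639697-37639946, plus strand) lies directly before the gene and over an exon of *Gm42922* on the other strand. *Spry2* (chr14:105896820-105897069, minus strand) lies directly before the gene and holds no annotated exon. *Spred1* (chr2:117120821-117121070, plus strand) is intergenic, and *Spred3* (chr7:29168648-29168897, minus strand) lies within the gene, outside its exons. *Il17rd* (chr14:27038751-27039000, plus strand) overlaps the annotated start of its gene. GC content was 62.4% in *Spry1*, 62.4% in *Spry2*, 70.8% in *Spred1*, 55.6% in *Spred3* and 54.4% in *Il17rd*, where the median window had 52.4%.
Spry1: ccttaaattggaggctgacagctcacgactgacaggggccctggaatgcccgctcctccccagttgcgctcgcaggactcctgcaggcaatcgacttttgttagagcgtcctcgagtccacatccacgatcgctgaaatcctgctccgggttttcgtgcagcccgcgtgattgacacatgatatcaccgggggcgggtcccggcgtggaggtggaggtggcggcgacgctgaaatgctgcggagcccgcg
Spry2: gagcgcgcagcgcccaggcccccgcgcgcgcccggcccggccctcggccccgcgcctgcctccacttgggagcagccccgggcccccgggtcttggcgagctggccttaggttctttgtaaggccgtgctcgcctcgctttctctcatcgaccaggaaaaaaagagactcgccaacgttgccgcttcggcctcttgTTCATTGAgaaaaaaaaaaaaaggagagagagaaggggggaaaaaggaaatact
Spred1: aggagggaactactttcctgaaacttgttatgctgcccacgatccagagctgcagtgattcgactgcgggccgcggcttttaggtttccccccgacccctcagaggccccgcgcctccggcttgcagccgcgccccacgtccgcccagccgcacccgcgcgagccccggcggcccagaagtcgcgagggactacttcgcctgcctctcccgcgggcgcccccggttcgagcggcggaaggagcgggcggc
Spred3: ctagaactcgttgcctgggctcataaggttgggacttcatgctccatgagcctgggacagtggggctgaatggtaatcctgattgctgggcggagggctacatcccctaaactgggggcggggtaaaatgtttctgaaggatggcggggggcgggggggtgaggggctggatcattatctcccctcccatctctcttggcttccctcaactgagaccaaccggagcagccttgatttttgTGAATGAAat
Il17rd: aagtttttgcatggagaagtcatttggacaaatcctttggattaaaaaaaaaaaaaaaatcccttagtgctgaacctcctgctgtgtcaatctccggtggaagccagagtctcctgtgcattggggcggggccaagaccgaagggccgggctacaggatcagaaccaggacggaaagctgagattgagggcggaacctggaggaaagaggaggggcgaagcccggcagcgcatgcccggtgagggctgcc
A match is a run of letters and was not tested as a binding site.

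Before either removal the genes differed in abundance. Per length of exon (RPKM, or CPM per kilobase of exon), *Spry2* was the most abundant member on soft substrates at 0 h of PD03 removal, at 41.5 ± 0.612 RPKM (SD, n = 2). *Spred1* followed at 18 ± 0.0729 RPKM. *Il17rd* at 8.76 ± 0.491 RPKM and *Spred2* at 7.96 ± 0.817 RPKM overlapped in their libraries. *Spry4* at 4.34 ± 0.192 RPKM and *Spry1* at 3.18 ± 0.102 RPKM came next and did not overlap. *Spred3* was the lowest, at 0.977 ± 0.0835 RPKM. At 2 h after PD03 removal *Spry4* stood second on soft substrates, at 37.7 ± 0.814 RPKM, below *Spry2* at 62.3 ± 2.65 RPKM and above *Spred1* at 23.8 ± 0.515 RPKM.

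In CHIRON removal, *Spry2* was again the most abundant on soft substrates at 0 h, at 48.2 ± 0.408 RPKM (SD, n = 2), and *Spred2* was the next, at 30.8 ± 0.992 RPKM. *Spry4* had 8.71 ± 0.941 RPKM, *Spred1* 6.39 ± 0.0211 RPKM and *Il17rd* 6.01 ± 0.103 RPKM, with no overlap between neighbours. *Spry1* at 4.60 ± 0.758 RPKM and *Spred3* at 1.25 ± 0.258 RPKM were the lowest. At 12 h after CHIRON removal *Spred2* at 29.1 ± 0.342 RPKM lay above *Spry2* at 19.0 ± 0.917 RPKM on soft substrates. *Spry4* then had 1.75 ± 0.662 RPKM, and its libraries overlapped those of *Spred3* at 1.32 ± 0.348 RPKM.

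The question of the first comparison was which genes respond early once MEK is free. *Spry4*, a Sprouty gene on chr18:38586247-38601415 (minus strand), had 20 and 21.3 CPM on soft substrates at 0 h and 176 and 182 CPM at 2 h after PD03 removal. Stiff substrates gave 30.3 and 23.7 CPM at 0 h and 220 and 251 CPM at 2 h. The libraries at 2 h lay far above those at 0 h on both substrates, with no overlap. *Spry4* rose 8.68-fold on soft substrates (95% CI 7.72 to 9.76, quasi-likelihood test of edgeR, Benjamini-Hochberg adjusted p = 1.03e-21). The rise on stiff substrates was 8.81-fold (95% CI 7.89 to 9.83, edgeR adjusted p = 1.33e-22). In bulk RNA, a change in the number of cells that express a gene and a change in RNA per cell cannot be told apart.

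The other Sprouty genes rose less. *Spry1* had 9.03 and 9.45 CPM on soft substrates at 0 h and 18.2 and 14.8 CPM at 2 h, and on stiff substrates 10.3 and 10.2 CPM at 0 h and 19.3 and 16.7 CPM at 2 h. *Spry2* had 87.5 and 85.7 CPM on soft substrates at 0 h and 126 and 134 CPM at 2 h, and on stiff substrates 98.5 and 87.6 CPM at 0 h and 147 and 146 CPM at 2 h. For both genes, the libraries of 0 h and 2 h did not overlap on either substrate. *Spry1* rose 1.79-fold on soft (95% CI 1.48 to 2.16, edgeR adjusted p = 0.00016) and 1.76-fold on stiff substrates (1.47 to 2.11, edgeR adjusted p = 7.84e-05). *Spry2* rose 1.5-fold on soft (1.38 to 1.63, edgeR adjusted p = 8.89e-08) and 1.58-fold on stiff substrates (1.46 to 1.72, edgeR adjusted p = 1.92e-09).

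Of the Spred genes, *Spred1* changed at 2 h. It had 122 and 123 CPM on soft substrates at 0 h and 164 and 159 CPM at 2 h, and on stiff substrates 129 and 121 CPM at 0 h and 159 and 164 CPM at 2 h. It rose 1.32-fold on soft (95% CI 1.23 to 1.42, edgeR adjusted p = 5.34e-06) and 1.29-fold on stiff substrates (1.21 to 1.39, edgeR adjusted p = 8.14e-06). *Spred2*, *Spred3* and *Il17rd* did not pass the threshold at 2 h. Their log2 fold changes were between 0.12 and 0.35 on soft (edgeR adjusted p from 0.381 to 0.555) and between 0.15 and 0.16 on stiff substrates (0.131 to 0.766). In all, 4 of 7 members rose on soft substrates, where 1.31% of all 13422 genes tested rose, and 4 of 7 rose on stiff substrates, where 1.83% did. The median log2 fold change of the members was 0.40 on soft and 0.37 on stiff substrates, against −0.002 and −0.003 over all genes tested.

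**Figure D1:**
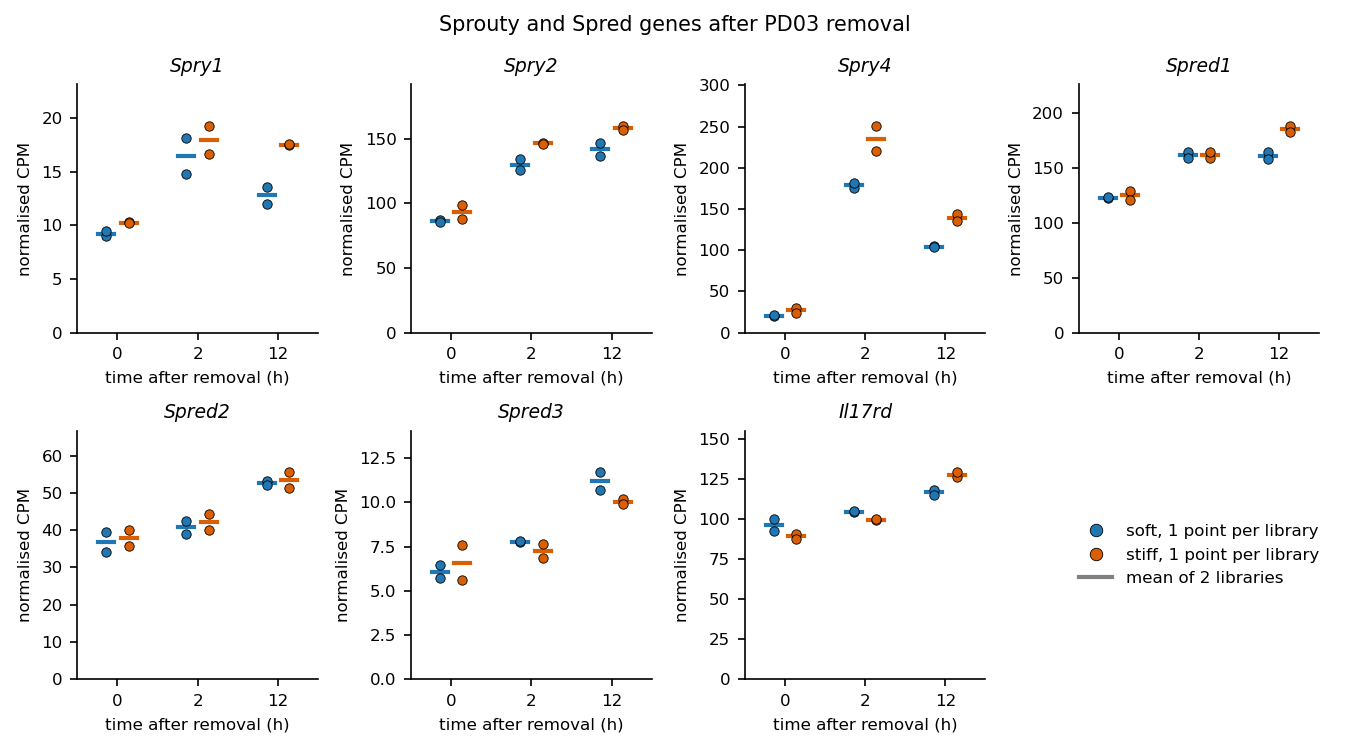
Normalised CPM of each member after PD03 removal, against time after removal in h, with 1 point per library, soft in blue and stiff in orange, and bars at the mean of 2 libraries. *Spry4* stands between 176 and 251 CPM at 2 h, above the 20 to 30.3 CPM of 0 h and the 104 to 144 CPM of 12 h.

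At 12 h after PD03 removal all 7 members were higher than at 0 h on both substrates (7 of 7 on soft, where 14.1% of all genes tested were higher, and 7 of 7 on stiff, where 18.5% were). The comparisons at 2 h and 12 h share the libraries of 0 h. The median log2 fold change of the members was 0.51 on soft and 0.62 on stiff substrates, and −0.001 over all genes tested on both. *Spry4* had 105 and 104 CPM on soft and 144 and 135 CPM on stiff substrates at 12 h, between the levels of 0 h and 2 h. It was 5.07-fold higher than at 0 h on soft (95% CI 4.49 to 5.72, quasi-likelihood test of edgeR, Benjamini-Hochberg adjusted p = 3.65e-18) and 5.23-fold on stiff substrates (4.67 to 5.86, adjusted p = 3.49e-19).

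*Spry2*, the most abundant Sprouty gene, had 147 and 137 CPM on soft and 160 and 157 CPM on stiff substrates at 12 h. Its fold change against 0 h was 1.64 on soft (95% CI 1.51 to 1.78, edgeR adjusted p = 1.4e-10) and 1.71 on stiff substrates (1.57 to 1.85, edgeR adjusted p = 1.04e-11). *Spry1* had 12.0 and 13.6 CPM on soft and 17.5 and 17.6 CPM on stiff substrates. All 4 of these libraries lay above the 4 of 0 h. Its fold change was 1.39 on soft (1.15 to 1.68, edgeR adjusted p = 0.00851) and 1.72 on stiff substrates (1.43 to 2.06, edgeR adjusted p = 1.9e-05). On soft substrates the call for *Spry1* was lost without replicate 1 of 0 h (log2 0.44, edgeR adjusted p = 0.0596) and without replicate 2 of 12 h (log2 0.38, edgeR adjusted p = 0.108).

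The Spred genes and *Il17rd* reached their highest means of PD03 removal at 12 h, apart from *Spred1* on soft substrates. *Spred1* had 164 and 158 CPM on soft and 188 and 182 CPM on stiff substrates, 1.32-fold (95% CI 1.23 to 1.42, edgeR adjusted p = 4.97e-07) and 1.48-fold (1.38 to 1.59, edgeR adjusted p = 3.18e-10) above 0 h. *Spred2* had 39.4 and 34.1 CPM at 0 h, 42.5 and 39.0 CPM at 2 h and 53.2 and 52.1 CPM at 12 h on soft substrates. Its levels on stiff substrates were 40.1 and 35.6 CPM, 40.1 and 44.2 CPM, and 51.3 and 55.5 CPM at these times. The libraries of *Spred2* at 12 h lay above all those of 0 h and 2 h. It rose 1.43-fold on soft (1.27 to 1.61, edgeR adjusted p = 2.07e-05) and 1.41-fold on stiff substrates (1.26 to 1.59, edgeR adjusted p = 2.1e-05).

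*Il17rd*, the gene of Sef, had 92.4 and 100 CPM at 0 h, 104 and 105 CPM at 2 h and 118 and 115 CPM at 12 h on soft substrates. The levels on stiff substrates were 90.6 and 87.5 CPM, 99.4 and 99.7 CPM, and 126 and 129 CPM. It rose 1.21-fold on soft (95% CI 1.12 to 1.31, edgeR adjusted p = 0.000245) and 1.43-fold on stiff substrates (1.33 to 1.55, edgeR adjusted p = 1.02e-08). *Spred3* was low, with 6.44 and 5.71 CPM at 0 h, 7.77 and 7.79 CPM at 2 h and 10.7 and 11.7 CPM at 12 h on soft substrates, and 7.60 and 5.59, 6.85 and 7.62, and 10.2 and 9.89 CPM on stiff substrates. Its fold change at 12 h was 1.84 on soft (1.47 to 2.30, edgeR adjusted p = 9.62e-05) and 1.54 on stiff substrates (1.23 to 1.93, edgeR adjusted p = 0.00289). The call for *Spred3* on stiff substrates was lost without replicate 2 of 0 h (log2 0.40, edgeR adjusted p = 0.114).

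The members parted between 2 h and 12 h. *Spry4* fell by 0.78 on the log2 scale on soft (95% CI −0.91 to −0.64, quasi-likelihood test of edgeR, Benjamini-Hochberg adjusted p = 8.87e-10) and by 0.75 on stiff substrates (−0.88 to −0.62, adjusted p = 4.35e-10). *Spry1* fell by 0.37 on soft substrates (95% CI −0.63 to −0.1, edgeR adjusted p = 0.0294). On stiff substrates its log2 fold change was −0.04 (95% CI −0.29 to 0.21). The intervals overlap, and whether the change from 2 h to 12 h differed between substrates was not tested for any member. *Spred2* rose by 0.37 on soft and 0.34 on stiff substrates, *Spred3* by 0.52 and 0.47, and *Il17rd* by 0.16 and 0.36 (edgeR adjusted p from 7.09e-06 to 0.0284 over these 6 tests). *Spred1* rose by 0.20 on stiff substrates (edgeR adjusted p = 0.00229), and *Spry2* passed the threshold on neither (0.13 on soft and 0.11 on stiff). Thus on soft substrates 3 of 7 members were higher at 12 h than at 2 h (15% of all genes tested) and 2 were lower (16.4%), and on stiff substrates 4 were higher (18%) and 1 was lower (19.5%). The median of the members was 0.13 on soft and 0.20 on stiff substrates, and −0.002 and 0.001 over all genes tested.

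Of these changes, those of *Spry4*, of *Spred2* and, on stiff substrates, of *Spred1* and *Il17rd* kept their calls in every refit that was run. On soft substrates, *Spry1* lost its call in DESeq2 (log2 −0.36, adjusted p = 0.0889), without replicate 1 of 12 h (−0.28, edgeR adjusted p = 0.21) and without replicate 1 of 2 h (−0.20, edgeR adjusted p = 0.378). *Il17rd* on soft substrates lost it in DESeq2 (DESeq2 adjusted p = 0.063) and without any of the 4 libraries compared (log2 0.14 to 0.18, edgeR adjusted p from 0.0608 to 0.145). *Spred3* on soft substrates lost it without replicate 2 of 12 h (0.46, edgeR adjusted p = 0.0875), replicate 1 of 2 h (0.53, 0.0581) or replicate 2 of 2 h (0.53, 0.0564). *Spred3* on stiff substrates lost it in DESeq2 (DESeq2 adjusted p = 0.0683) and without replicate 1 of 12 h (0.45, edgeR adjusted p = 0.105), replicate 2 of 12 h (0.49, 0.0687) or replicate 1 of 2 h (0.40, 0.146).

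Soft and stiff substrates were then compared at each time of PD03 removal, to see whether stiffness shifts the members. At 0 h edgeR called 0 of 7 members, as against 0.0298% of all genes tested. Of the members, 2 had an unadjusted p under 0.05 in edgeR (*Spry4* and *Il17rd*) and 1 in DESeq2, which also called 0. *Spry4* was lower on soft substrates by a log2 fold change of −0.37 (95% CI −0.58 to −0.17, quasi-likelihood test of edgeR, Benjamini-Hochberg adjusted p = 0.295), with both soft libraries (20 and 21.3 CPM) below both stiff ones (30.3 and 23.7 CPM). With no filter on low counts it passed the threshold at 0 h (edgeR adjusted p = 0.0106).

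At 2 h after PD03 removal *Spry4* had a lower level on soft substrates (log2 fold change against stiff −0.39, 95% CI −0.52 to −0.26, quasi-likelihood test of edgeR, Benjamini-Hochberg adjusted p = 0.00254), or 0.761-fold. It was 1 of 7 members lower, where 0.127% of all genes tested were (17 genes, and 5 to 26 when 1 library was left out). *Spry2* had a log2 fold change of −0.18 (edgeR adjusted p = 0.339), and the other 5 members were between −0.12 and 0.11. Without replicate 1 of soft at 2 h the adjusted p of *Spry4* was 0.156 in edgeR (log2 −0.37), and without replicate 2 of stiff at 2 h it was 0.144 (log2 −0.30).

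At 12 h after PD03 removal, 2 of 7 members were lower on soft substrates, where 0.477% of all genes tested were (64 genes, and 8 to 73 when 1 library was left out). *Spry4* had a log2 fold change of −0.42 (95% CI −0.56 to −0.28, quasi-likelihood test of edgeR, Benjamini-Hochberg adjusted p = 0.00186) and *Spred1* of −0.20 (−0.31 to −0.10, adjusted p = 0.0431). Both soft libraries of each gene lay below both stiff ones. *Spry1* also had soft libraries (12.0 and 13.6 CPM) below the stiff ones (17.5 and 17.6 CPM), yet its log2 fold change of −0.45 did not pass the threshold (95% CI −0.71 to −0.19, edgeR adjusted p = 0.1). *Spry2* was at −0.15 (edgeR adjusted p = 0.263) and *Il17rd* at −0.13 (0.384), while *Spred2* was at −0.02 (0.968) and *Spred3* at 0.16 (0.82). The median of the members was −0.15, and −0.002 over all genes tested. The call for *Spry4* was lost without replicate 1 of stiff at 12 h (log2 −0.37, edgeR adjusted p = 0.0825). That for *Spred1* was lost in DESeq2 (DESeq2 adjusted p = 0.0889), in a fit of all genes (edgeR adjusted p = 0.0911) and without any of 8 libraries, namely those of soft at 0 h, soft at 2 h, soft at 12 h and stiff at 12 h (log2 −0.23 to −0.18, edgeR adjusted p from 0.0501 to 0.377).

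The response itself was not found to differ between substrates. For the difference between the responses on soft and on stiff substrates, edgeR called 0 of 7 members at 2 h (0.00745% of all genes tested) and 0 of 7 at 12 h (0% of all genes tested). At 2 h, 0 members had an unadjusted p under 0.05 in edgeR and 0 in DESeq2, and at 12 h 2 had in each (*Spred1* and *Il17rd*), while DESeq2 also called 0 at both times. The difference for *Spry4* was −0.02 at 2 h (95% CI −0.27 to 0.22) and −0.05 at 12 h (−0.30 to 0.20) on the log2 scale. For *Il17rd* at 12 h it was −0.24 (−0.40 to −0.09, edgeR adjusted p = 0.518), for *Spred1* −0.17 (−0.32 to −0.03, edgeR adjusted p = 0.657) and for *Spry1* −0.30 (−0.69 to 0.08). The difference in *Spry4* between substrates was thus of like size at 0 h, 2 h and 12 h (−0.37, −0.39 and −0.42). With all libraries and the filter on low counts, it passed the threshold at 2 h and 12 h alone. With no filter it passed at 0 h too (edgeR adjusted p = 0.0106). The calls at 2 h and 12 h were lost without single libraries, as given above.

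**Figure D2:**
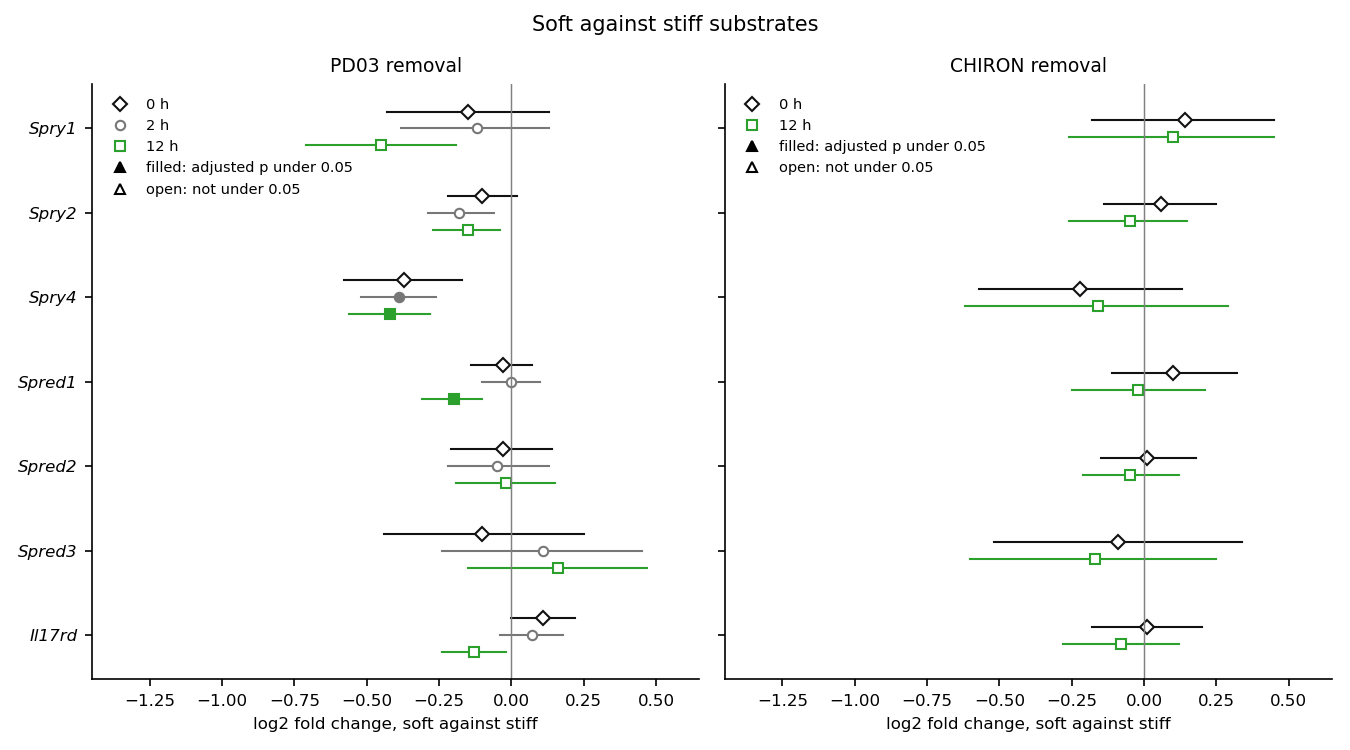
Log2 fold change of each member, soft against stiff, at each tested time of PD03 removal (left) and CHIRON removal (right), with 95% CI as lines and filled symbols for an adjusted p under 0.05. *Spry4* lies between −0.37 and −0.42 at the 3 times of PD03 removal, and each interval of CHIRON removal spans 0.

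CHIRON removal asked the reverse question, since MEK stayed inhibited and GSK3 was set free. *Spry4* had 44.6 and 38.3 CPM on soft substrates at 0 h, 22.7 and 18.8 CPM at 2 h and 6.11 and 10.6 CPM at 12 h. On stiff substrates it had 46.8 and 49.8 CPM at 0 h, 20.2 CPM in the library of 2 h, and 10.7 and 7.30 CPM at 12 h. The libraries fell into separate ranges by time on both substrates. On soft substrates *Spry4* had fallen by 1.00 on the log2 scale at 2 h (95% CI −1.37 to −0.63, quasi-likelihood test of edgeR, Benjamini-Hochberg adjusted p = 0.0162), which is 0.5-fold. At 12 h it was 0.194-fold on soft (0.147 to 0.257, edgeR adjusted p = 1.31e-07) and 0.187-fold on stiff substrates (0.141 to 0.246, edgeR adjusted p = 8.53e-08).

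At 2 h on soft substrates *Spry4* was 1 of 7 members lower, where 0.0684% of all 14615 genes tested were. These 10 genes became 43 with no filter on low counts and 1 with the library of 171333 counts. Of the others, *Spry1* had a log2 fold change of −0.46 (edgeR adjusted p = 0.347), *Spry2* of −0.32 (0.238), *Il17rd* of −0.30 (0.283) and *Spred1* of −0.20 (0.6). *Spred3* had 0.59 (edgeR adjusted p = 0.343) and *Spred2* 0.14 (0.616). The median of the members was −0.30, and −0.001 over all genes tested. The call for *Spry4* at 2 h was not stable. It was lost in DESeq2 (DESeq2 adjusted p = 0.159), in a fit of all genes (edgeR adjusted p = 0.0651), with replicate number as a block (0.0504) and with the library of 171333 counts (0.709). It was also lost without replicate 1 (log2 −0.88, edgeR adjusted p = 0.338) or 2 (−1.11, 0.0746) of soft at 0 h and without replicate 1 (−1.14, 0.0747) or 2 (−0.87, 0.265) of soft at 2 h. On stiff substrates at 2 h, where 1 library allows values and no test of its own, the log2 fold changes against 0 h were −1.25 for *Spry4*, −0.44 for *Spry2*, −0.28 for *Spry1*, −0.18 for *Il17rd*, 0.01 for *Spred1*, 0.14 for *Spred2* and 0.39 for *Spred3*.

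By 12 h after CHIRON removal, 5 of 7 members were lower than at 0 h on soft substrates, where 8.63% of all genes tested were, and 5 of 7 on stiff substrates, where 8.33% were. These were *Spry1*, *Spry2*, *Spry4*, *Spred1* and *Il17rd* on both. The median log2 fold change of the members was −0.87 on soft and −0.84 on stiff substrates, against −0.014 and −0.009 over all genes tested. *Spry2* had 99.9 and 101 CPM at 0 h, 87.3 and 74.0 CPM at 2 h and 38.3 and 41.0 CPM at 12 h on soft substrates. For stiff substrates these were 90.4 and 103 CPM, 71.2 CPM, and 40.6 and 41.5 CPM. *Spry2* thus ended below every library of 0 h and 2 h, at 0.393-fold of 0 h on soft (95% CI 0.343 to 0.452, quasi-likelihood test of edgeR, Benjamini-Hochberg adjusted p = 2.15e-08) and 0.424-fold on stiff substrates (0.369 to 0.487, adjusted p = 6.69e-08).

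*Spred1* had 43.3 and 43.5 CPM at 0 h, 36.9 and 38.7 CPM at 2 h and 19.8 and 18.8 CPM at 12 h on soft substrates. Those on stiff substrates were 43.7 and 37.1 CPM, 40.6 CPM, and 20.8 and 18.5 CPM. Its libraries of 12 h were the lowest on both substrates, at 0.447-fold of 0 h on soft (95% CI 0.383 to 0.521, edgeR adjusted p = 5.09e-07) and 0.486-fold on stiff (0.416 to 0.569, edgeR adjusted p = 1.96e-06). *Il17rd* had 66.8 and 65.2 CPM at 0 h, 54.5 and 53.0 CPM at 2 h and 36.0 and 39.5 CPM at 12 h on soft substrates, and 65.5 and 65.8, 58.1, and 42.8 and 36.9 CPM on stiff substrates. It was 0.570-fold of 0 h on soft (0.499 to 0.652, edgeR adjusted p = 5.86e-06) and 0.607-fold on stiff substrates (0.531 to 0.694, edgeR adjusted p = 2.22e-05). *Spry1* was low throughout, with 14.9 and 11.8 CPM at 0 h, 10.0 and 9.38 CPM at 2 h and 7.83 and 6.59 CPM at 12 h on soft substrates, and 11.9 and 12.4, 9.96, and 7.08 and 6.50 CPM on stiff substrates. Its fold change at 12 h was 0.546 on soft (0.434 to 0.688, edgeR adjusted p = 0.000733) and 0.560 on stiff substrates (0.442 to 0.710, edgeR adjusted p = 0.0014), where the call was lost with the library of 171333 counts (edgeR adjusted p = 0.0551).

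*Spred2* and *Spred3* did not pass the threshold at 12 h. *Spred2* had 139 and 146 CPM at 0 h, 158 and 156 CPM at 2 h and 135 and 133 CPM at 12 h on soft substrates. On stiff substrates it had 132 and 150 CPM, 155 CPM, and 136 and 141 CPM. Its log2 fold change was −0.09 on soft (95% CI −0.25 to 0.08, edgeR adjusted p = 0.505) and −0.02 on stiff substrates (−0.19 to 0.14, edgeR adjusted p = 0.872). *Spred3* stood between 6.64 and 12.3 CPM in all 11 libraries, with log2 fold changes of 0.05 on soft (−0.37 to 0.48) and 0.14 on stiff substrates (−0.29 to 0.56).

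**Figure D3:**
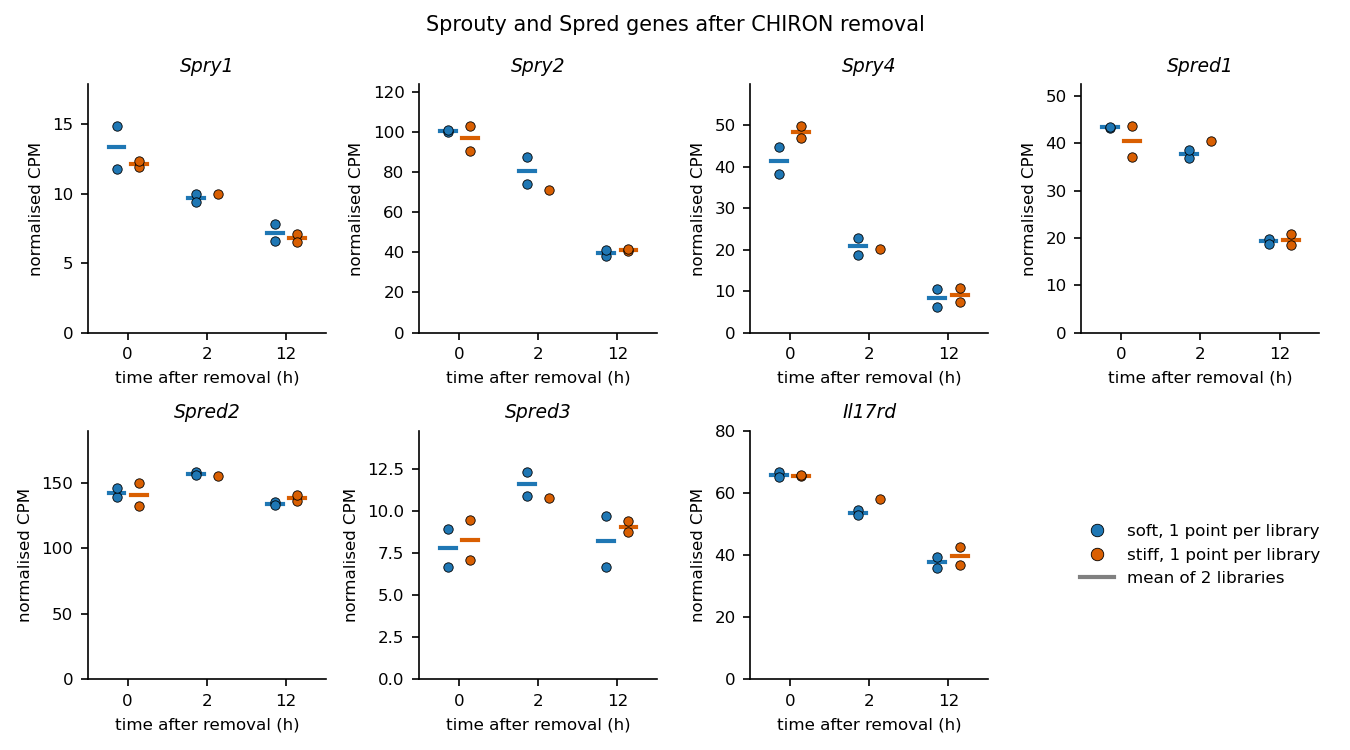
Normalised CPM of each member after CHIRON removal, against time after removal in h, with 1 point per library, soft in blue and stiff in orange, and bars at the mean of 2 libraries. Stiff at 2 h had 1 library. *Spry4* falls from between 38.3 and 49.8 CPM at 0 h to between 6.11 and 10.7 CPM at 12 h, and *Spred2* stands between 132 and 158 CPM throughout.

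Between 2 h and 12 h on soft substrates 4 of 7 members fell, where 8.54% of all genes tested did (1248 genes, and 648 to 1360 when 1 library was left out). The falls on the log2 scale were −1.36 for *Spry4* (95% CI −1.78 to −0.94, quasi-likelihood test of edgeR, Benjamini-Hochberg adjusted p = 0.000115), −1.03 for *Spry2* (adjusted p = 8.31e-07), −0.97 for *Spred1* (6.51e-06) and −0.51 for *Il17rd* (0.000882). *Spry1* at −0.41 (edgeR adjusted p = 0.0951), *Spred3* at −0.53 (0.0774) and *Spred2* at −0.23 (0.0522) did not pass the threshold. *Spred3* passed it with no filter on low counts (log2 −0.51, edgeR adjusted p = 0.0231) and without replicate 2 of soft at 12 h (−0.80, 0.0261), and *Spred2* without replicate 1 of stiff at 0 h (−0.23, 0.0381). *Il17rd* lost its call with the library of 171333 counts (edgeR adjusted p = 0.133). The median of the members was −0.53, and −0.018 over all genes tested. On stiff substrates, from the library of 2 h and with no test, the log2 values were −1.17 for *Spry4*, −0.79 for *Spry2*, −1.05 for *Spred1*, −0.54 for *Il17rd*, −0.55 for *Spry1*, −0.26 for *Spred3* and −0.16 for *Spred2*.

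Soft and stiff substrates were not found to differ for any member at 0 h or 12 h of CHIRON removal. At 2 h, where stiff had 1 library, no test was made. The log2 values, soft against stiff, then lay between −0.11 (*Il17rd*) and 0.18 (*Spry2*). EdgeR called 0 of 7 members at 0 h, 0 of 7 at 12 h and 0 of 7 for the difference in the response at 12 h, and 0% of all genes tested were called in each of these comparisons. In each, 0 members had an unadjusted p under 0.05 in edgeR and 0 in DESeq2, which also called 0. *Spry4* had a log2 fold change, soft against stiff, of −0.22 at 0 h (95% CI −0.57 to 0.13) and of −0.16 at 12 h (−0.62 to 0.29), and its response at 12 h differed by 0.06 (−0.51 to 0.63). These intervals hold the values of −0.37 and −0.42 that *Spry4* had at 0 h and 12 h of PD03 removal. For *Spred2*, the interval was −0.15 to 0.18 at 0 h and −0.21 to 0.12 at 12 h.

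The responses to the removals were set against each other in a fit of all 23 libraries. The experiment and the inhibitor removed cannot be told apart in this comparison, and each time shares the 0 h libraries of both experiments. At 2 h on soft substrates the response to PD03 removal exceeded that to CHIRON removal for 5 of 7 members, where 0.454% of all 14759 genes tested did. The difference was 4.12 on the log2 scale for *Spry4* (95% CI 3.71 to 4.53, quasi-likelihood test of edgeR, Benjamini-Hochberg adjusted p = 1.16e-13), 1.30 for *Spry1* (adjusted p = 0.000464), 0.90 for *Spry2* (1.02e-05), 0.60 for *Spred1* (0.00138) and 0.42 for *Il17rd* (0.0386). For *Spred2* it was 0.01 (−0.23 to 0.24) and for *Spred3* −0.23 (−0.79 to 0.32). The median of the members was 0.60, and 0.003 over all genes tested. With the library of 171333 counts, *Spry2* (edgeR adjusted p = 0.131), *Spred1* (0.129) and *Il17rd* (0.66) lost their calls. The call for *Il17rd* was also lost in a fit of all genes (edgeR adjusted p = 0.0747), with replicate number as a block (0.0699) and without any of 12 libraries (log2 0.35 to 0.46, edgeR adjusted p from 0.0529 to 0.239). These were all those of PD03 removal but replicate 2 of soft at 0 h and the pair of stiff at 2 h, together with both of soft at 0 h and replicate 2 of soft at 2 h of CHIRON removal.

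At 12 h the response to PD03 removal exceeded that to CHIRON removal for 7 of 7 members on soft substrates (10.5% of all genes tested) and for 6 of 7 on stiff substrates (12.4%). On soft substrates the difference was 4.72 for *Spry4* (95% CI 4.28 to 5.16), 2.06 for *Spry2*, 1.56 for *Spred1*, 1.34 for *Spry1*, 1.08 for *Il17rd*, 0.82 for *Spred3* and 0.60 for *Spred2* on the log2 scale (quasi-likelihood test of edgeR, Benjamini-Hochberg adjusted p from 2.63e-15 to 0.0259). On stiff substrates it was 4.80 for *Spry4* (4.38 to 5.23), 2.01 for *Spry2*, 1.62 for *Spry1*, 1.61 for *Spred1*, 1.24 for *Il17rd* and 0.53 for *Spred2* (edgeR adjusted p from 8.74e-16 to 0.000938). For *Spred3* on stiff substrates it was 0.48 (−0.06 to 1.03, edgeR adjusted p = 0.2). The median of the members was 1.34 on soft and 1.61 on stiff substrates, and 0.008 and 0.014 over all genes tested. On soft substrates the call for *Spred3* was lost without replicate 2 of soft at 0 h (log2 0.75, edgeR adjusted p = 0.101) or at 12 h (0.76, 0.0886) of PD03 removal and without replicate 1 of soft at 0 h (0.61, 0.147) or at 12 h (0.56, 0.16) of CHIRON removal. With the library of 171333 counts, *Spred3* (edgeR adjusted p = 0.0873) and *Spred2* (0.194) lost their calls on soft and *Spred2* (0.244) on stiff substrates.

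**Figure D4:**
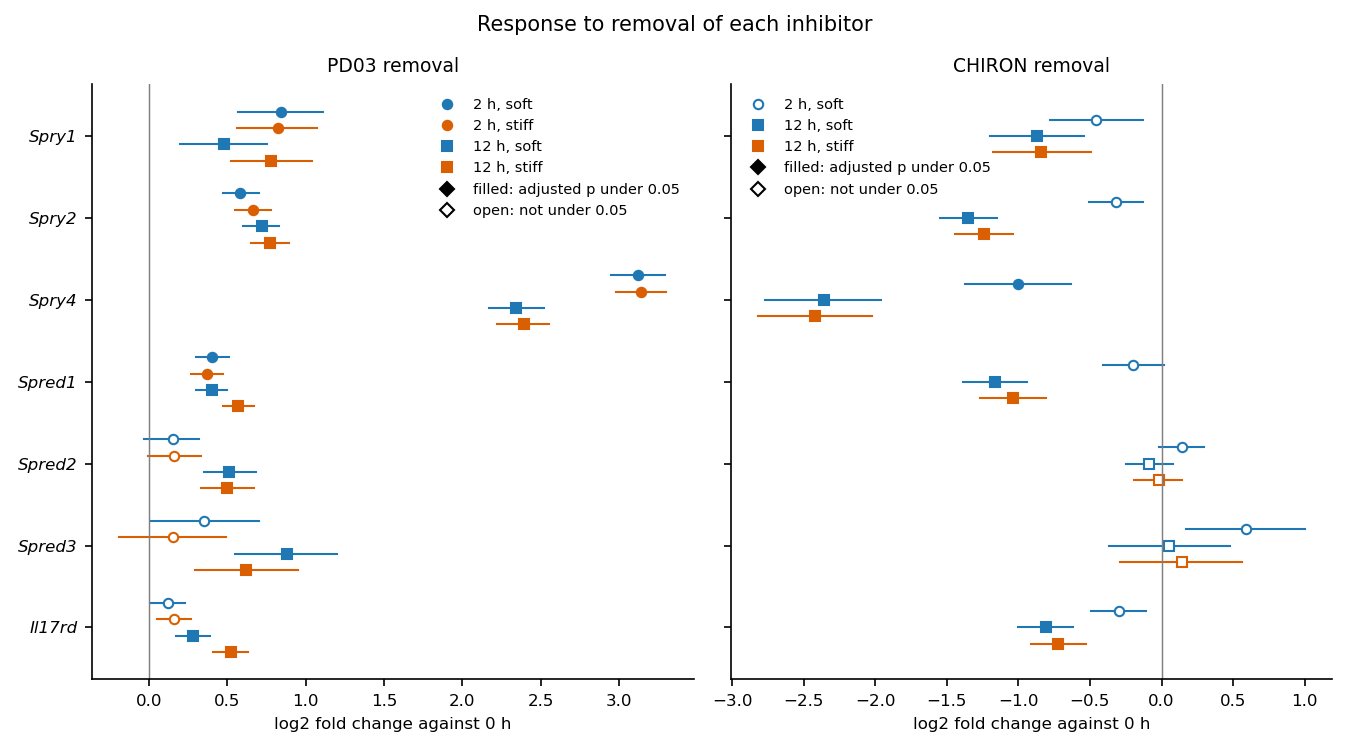
Log2 fold change of each member against 0 h after PD03 removal (left) and CHIRON removal (right), with 95% CI as lines and filled symbols for an adjusted p under 0.05. *Spry4* has the largest changes, between 2.34 and 3.14 after PD03 removal and between −2.42 and −1 after CHIRON removal.

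Other genes of the pathway, and Wnt targets, were counted from lists chosen with earlier results of these data known. Their shares, set beside those of all genes, are thus a description. Of 16 other feedback genes and ERK targets, 15 were tested in PD03 removal, and 9 were higher at 2 h on soft and 11 on stiff substrates, where 1.31% and 1.83% of all genes tested were (median log2 0.41 and 0.63, and near 0 over all genes tested). The early response gene *Egr1* led both, from 0 and 3 counts at 0 h to 316 and 295 at 2 h on soft substrates and from 4 and 0 to 823 and 857 on stiff ones (edgeR adjusted p = 1.81e-15 and 2.24e-19), and no fold is given for so few counts at 0 h. Next on soft substrates came *Phlda1* (log2 2.16, edgeR adjusted p = 1.6e-05) and the ERK phosphatase gene *Dusp6* (1.90, 5.4e-20), which went from 35.0 and 34.5 CPM to 128 and 131 CPM. On stiff ones came the AP-1 gene *Fos* (2.80, edgeR adjusted p = 1.95e-10) and *Phlda1* (2.17, 4.51e-07). At 12 h, 7 of these 15 genes were higher and 1 was lower on each substrate, where 14.1% and 18.5% of all genes were higher and 15.3% and 19.9% lower on soft and stiff. They were led by *Myc* (1.40), *Dusp4* (1.36) and *Phlda1* (1.36) on soft and by *Dusp4* (2.13), *Myc* (1.67) and *Dusp6* (1.33) on stiff substrates (edgeR adjusted p from 1.73e-16 to 0.00156). On stiff substrates the 1 lower became 0 in DESeq2 and in a fit of all genes, and 2 with no filter and with only the groups compared. Soft against stiff, 3 of the 15 were lower on soft at 2 h (0.127% of all genes), 4 at 12 h (0.477%) and 0 higher. *Egr1* (log2 −1.33), *Fos* (−0.93) and *Dusp6* (−0.45) led at 2 h, where DESeq2 called 1 of the list. *Dusp4* (−0.84), *Myc* (−0.59) and *Dusp6* (−0.39) led at 12 h (edgeR adjusted p from 1.58e-06 to 0.0225). For the difference in response, soft minus stiff, 0 were called at either time.

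Of 12 partners of Sprouty and Spred proteins, 11 were tested, and edgeR and DESeq2 each called 0 at 2 h on both substrates, with 1 gene at an unadjusted p under 0.05 in edgeR on each. At 12 h, 2 of the 11 were higher on soft substrates (*Cbl* 0.37 and *Nf1* 0.25), where 14.1% of all genes were. On stiff ones 2 of 11 were higher and 3 lower, where 18.5% and 19.9% of all genes were, led by *Tesk1* (0.40), *Mknk1* (−0.34) and *Cbl* (0.23). DESeq2 called 1 partner on soft and 3 on stiff substrates, and when 1 library was left out edgeR called 1 to 2 on soft and 1 to 5 on stiff. Of the 23 genes from receptor to ERK, 22 were tested, with 1 higher and 2 lower at 2 h on soft and 1 lower on stiff substrates, where 1.31% of all genes were higher and 0.648% lower on soft and 0.894% lower on stiff. The ligand gene *Fgf4* was lower on both, by −0.61 on soft (edgeR adjusted p = 2.45e-08) and −0.65 on stiff substrates (2.8e-09), followed on soft ones by *Ksr1* (−0.43) and *Braf* (0.26). The call for *Braf* was lost in DESeq2 and in a fit of all genes, and when 1 library was left out 1 to 3 genes of the list were called. At 12 h, 5 were higher and 2 lower on soft substrates, led by *Mapk3* (0.56), *Fgf4* (−0.50) and *Map2k1* (−0.22), and 9 were higher and 3 lower on stiff ones, led by *Fgfr2* (−1.36), *Fgfr4* (1.01) and *Mapk3* (0.57). Of all genes, 14.1% were higher and 15.3% lower on soft, and 18.5% higher and 19.9% lower on stiff substrates. DESeq2 called 3 higher on soft and 6 on stiff substrates, and when 1 library was left out edgeR called 2 to 6 and 4 to 9.

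At 12 h after CHIRON removal, 6 of 16 other feedback genes and ERK targets were lower and 1 was higher on soft substrates, and 5 were lower and 1 was higher on stiff substrates (median log2 −0.24 and −0.32). Of all genes tested, 8.63% were lower and 9.18% higher on soft and 8.33% lower and 8.46% higher on stiff substrates. With the library of 171333 counts, 4 of these genes were lower on each substrate, and 1 was higher on soft and 0 on stiff. The largest changes were those of *Myc* (−2.30 on soft and −1.53 on stiff substrates), *Flrt3* (−2.04 and −2.29) and *Ier3* (1.93 and 1.28, edgeR adjusted p = 0.000481 and 0.0081). From receptor to ERK, 6 of 23 were higher and 1 was lower on each substrate, led by *Fgfr2* (1.79 and 1.31), *Fgf4* (1.28 and 1.15) and *Map2k1* (0.38 and 0.50). This count was not stable, with 2 to 6 higher on soft and 4 to 6 on stiff substrates when 1 library was left out, and 0 on each with the library of 171333 counts. Of the partners, 1 of 11 tested was higher on each substrate, the kinase gene *Tesk1* (0.35 on soft and 0.38 on stiff). That call was lost in DESeq2, in a fit of all genes, with replicate number as a block and with the library of 171333 counts, and on stiff substrates also with only the groups compared.

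As a check of the removal of CHIRON, 6 of 8 Wnt targets were lower and 1 was higher at 12 h on each substrate, where 8.63% and 8.33% of all genes were lower and 9.18% and 8.46% higher. The 1 higher became 0 on soft and the 6 lower became 5 on stiff substrates with the library of 171333 counts. *Sp5* (log2 −6.09 on soft and −5.80 on stiff substrates), *T* and *Cdx1* (−3.94 and −4.20) changed most (edgeR adjusted p from 1.83e-15 to 3.33e-09). *T* went from 151 and 207 counts at 0 h to 7 and 5 at 12 h on soft and from 139 and 165 to 3 and 2 on stiff substrates. After PD03 removal 4 of the 7 Wnt targets tested were higher at 12 h and 1 was lower on each substrate, where 14.1% and 18.5% of all genes were higher and 15.3% and 19.9% lower, led by *T* (1.38 on soft and 1.57 on stiff), *Lef1* (0.64 and 0.54) and *Cdx1* (0.60 and 0.59). At 2 h after PD03 removal 0 were higher. Then 2 were lower on soft (*Nkd1* −0.95 and *Axin2* −0.22) and 1 on stiff substrates (*Axin2* −0.30). Of all genes, 0.648% and 0.894% were lower. On soft substrates DESeq2 called 0 of the Wnt targets at 2 h, and a fit of all genes called 1.

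The genes whose log2 CPM most resembled that of each member were sought among all other genes tested. The libraries share their groups, so r is a description, with no p. Over the 12 libraries of PD03 removal, *Spry4* was nearest to *Dusp6* (r = 0.98), *Xbp1* (0.972) and *Enc1* (0.97). *Spry2* and *Spred1* were both nearest to *Zfp36l1* (r = 0.98 and 0.977), and *Spry1* to *Dppa2* (0.975), *Dusp4* (0.943) and *Pmaip1* (0.943). *Spred2* and *Spred3* were both nearest to *mt-Nd4l* (r = 0.979 and 0.965), a gene of the mitochondrial genome, and *Il17rd* to *Parvb* (0.976), *Ryr3* (0.974) and *Eras* (0.963). Over the 11 libraries of CHIRON removal, *Spry2* was nearest to *Gbx2* (r = 0.994), the Wnt target *Axin2* (0.992) and *Slc30a2* (0.99). *Spred1* was nearest to *Nkx1-2* (0.989), the Wnt target *Sp5* (0.989) and *Grsf1* (0.988), *Spry4* to *Rrn3* (0.975), *Gart* (0.974) and *Id3* (0.974), and *Il17rd* to *Gart* (0.989), *Bid* (0.986) and *Txn2* (0.985). *Spry1* was nearest to *Nt5dc3* (0.975), *Spred2* to *Pdf* (0.957) and *Spred3* to *Arhgap31* (0.927).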

How the data were processed

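Members and gene lists were chosen with earlier results of these data known. Total RNA was depleted of ribosomal RNA and sequenced. The authors trimmed reads with Trim Galore, aligned them to GRCm38 (mm10) with TopHat2 2.1.0, took the genes of Ensembl 86 and deposited raw counts made by featureCounts 1.5.0, whose strand setting is not given. In the counts of PD03 removal, 12 columns of other samples were not used.

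From the counts, protein-coding genes were filtered with filterByExpr (minimum count 10, minimum total count 15), normalised by TMM and tested with the quasi-likelihood test of edgeR 4.0.16 (R 4.3.3), with the groups of an experiment, or of both, in 1 model (threshold 0.05 on Benjamini-Hochberg adjusted p, 95% confidence intervals). The models tested 13422, 14615 and 14759 genes. What edgeR names the biological coefficient of variation, here a spread between libraries, was 0.0386 in PD03 removal, 0.0797 in CHIRON removal and 0.0605 in both. Values against the lone library of stiff at 2 h had no test. RPKM used the summed length of all exons in GENCODE M21, and log2 CPM a prior count of 2. All 7 members passed the filter, with between 90 and 3611 counts per library. In the 11 groups with 2 libraries, these differed by more than counting noise alone (chi-square divided by its degrees of freedom 2.24 to 19.7), so neither copies the other. Besides the members, the 3 called genes of each list with the largest fold change were named, along with the genes most correlated with each member. Naming from lists was kept to 2 h and 12 h against 0 h of PD03 removal and 12 h against 0 h of CHIRON removal. For other feedback genes and ERK targets, soft against stiff at 2 h and 12 h of PD03 removal was added. Both choices were made after the results were seen. Alternatives were DESeq2 1.42.0, its size factors, no filter, all genes, a replicate block, only the groups compared, adding the library left out, and leaving out each library. The procedure was tested on simulated data, and no outcome of that test is given or used here.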

Additional observations from a re-analysis of the deposited data

Results flagged for a closer look

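The members changed in different directions between 2 h and 12 h after PD03 removal, by edgeR's test of that difference. On soft substrates the log2 fold change at 12 h against 2 h was −0.78 for *Spry4* and −0.37 for *Spry1*, but 0.37 for *Spred2*, 0.52 for *Spred3* and 0.16 for *Il17rd*. On stiff substrates it was −0.75 for *Spry4*, but 0.20 for *Spred1*, 0.34 for *Spred2*, 0.47 for *Spred3* and 0.36 for *Il17rd*. After CHIRON removal on soft substrates it was −1.36 for *Spry4*, −1.03 for *Spry2*, −0.97 for *Spred1* and −0.51 for *Il17rd*. Some of these calls were lost in refits. After PD03 removal, *Spry1* and *Il17rd* on soft and *Spred3* on stiff substrates lost theirs in DESeq2, at nearly the same log2 fold changes of −0.36, 0.16 and 0.47 (DESeq2 adjusted p = 0.0889, 0.063 and 0.0683), and these and *Spred3* on soft substrates lost them when single libraries were left out. After CHIRON removal, *Il17rd* lost its call with the library of 171333 counts (log2 −0.51, edgeR adjusted p = 0.133).

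The responses to the removals of PD03 and of CHIRON differed by edgeR's test of the difference. At 2 h on soft substrates the response to PD03 removal was larger by 4.12 for *Spry4*, 1.30 for *Spry1*, 0.90 for *Spry2*, 0.60 for *Spred1* and 0.42 for *Il17rd* on the log2 scale. At 12 h on soft substrates it was larger by 4.72 for *Spry4*, 2.06 for *Spry2*, 1.56 for *Spred1*, 1.34 for *Spry1*, 1.08 for *Il17rd*, 0.82 for *Spred3* and 0.60 for *Spred2*. At 12 h on stiff substrates it was larger by 4.80 for *Spry4*, 2.01 for *Spry2*, 1.62 for *Spry1*, 1.61 for *Spred1*, 1.24 for *Il17rd* and 0.53 for *Spred2*. The experiment and the inhibitor removed cannot be told apart in these differences. With the library of 171333 counts, *Spry2*, *Spred1* and *Il17rd* lost their calls at 2 h, *Spred2* and *Spred3* at 12 h on soft and *Spred2* at 12 h on stiff substrates. *Il17rd* at 2 h and *Spred3* at 12 h on soft substrates also lost them when single libraries were left out.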

How the results depend on the processing

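Over 2877 refitted fold changes of members, 2808 kept their side of the threshold, 65 lost the call, 4 gained it and 0 reversed a call. Of the 2808, 72 changed sign, all of them called by neither fit. Group means of CPM by DESeq2's size factors differed from those by TMM by at most 0.302%, and 0 of the 77 group means with 2 libraries moved by more than 1 SD. The 7 levels of the lone library stayed within the counting interval. The largest shift of the median of all genes was 0.0432 (log2), and 0.0231 with DESeq2's size factors.

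The number of members called changed as follows, and the cause was not tested. For counts of members in this section, the difference in response is the response to PD03 removal minus that to CHIRON removal. For counts over all genes, it is the response on soft minus that on stiff substrates. In DESeq2 it went from 5 to 3 on soft and from 5 to 4 on stiff substrates at 12 h against 2 h of PD03 removal, from 2 to 1 for soft against stiff at 12 h of PD03 removal, and from 1 to 0 at 2 h of CHIRON removal on soft substrates. With no filter it went from 0 to 1 for soft against stiff at 0 h of PD03 removal and from 4 to 5 at 12 h against 2 h of CHIRON removal. In a fit of all genes it went from 2 to 1 for soft against stiff at 12 h of PD03 removal, from 1 to 0 at 2 h of CHIRON removal, and from 5 to 4 for the difference in response at 2 h. With the library of 171333 counts added, it went from 1 to 0 at 2 h of CHIRON removal, from 5 to 4 at 12 h on stiff substrates, from 4 to 3 at 12 h against 2 h, and for the difference in response from 5 to 2 at 2 h and at 12 h from 7 to 5 on soft and 6 to 5 on stiff substrates.

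With replicate number as a block, members called went from 1 to 0 at 2 h of CHIRON removal (*Spry4*, edgeR adjusted p = 0.0504), and from 5 to 4 for the difference in response at 2 h (*Il17rd*, 0.0699). No other call of a member changed with the block. Same-numbered libraries did not deviate together, so the numbers do not pair them (mean r −0.00282 over 15 pairs in PD03 removal, −0.0198 over 10 pairs in CHIRON removal).

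Leaving out each library in turn, with a lone library assumed to vary like the other groups, gave between 2 and 5 members called at 12 h against 2 h of PD03 removal on soft and 4 to 5 on stiff substrates. It gave 0 to 1 for soft against stiff at 2 h and 0 to 2 at 12 h of PD03 removal, and 0 to 1 at 2 h of CHIRON removal. It gave 6 to 7 at 12 h against 0 h of PD03 removal on both substrates, 4 to 5 at 12 h against 2 h of CHIRON removal, 4 to 5 for the difference in response at 2 h and 6 to 7 at 12 h on soft substrates.

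Over all genes tested, DESeq2 called 174 where edgeR called 263 at 2 h of PD03 removal on soft substrates. For soft against stiff in PD03 removal, DESeq2 called 2 at 0 h, 9 at 2 h and 65 at 12 h, where edgeR called 4, 18 and 103. With no filter these became 29, 71 and 187, at 0 h 0 with all genes, and at 12 h 175 with only the groups compared. With no filter the difference in response between substrates went from 1 to 6 at 2 h and from 0 to 17 at 12 h of PD03 removal, and from 0 to 7 at 12 h of CHIRON removal. It also raised soft against stiff of CHIRON removal from 0 to 17 at 0 h and from 0 to 15 at 12 h, 2 h of CHIRON removal from 33 to 144, and the difference between removals at 2 h from 120 to 230. The block took 2 h of CHIRON removal from 33 to 21. With the library of 171333 counts, calls fell from 33 to 1 at 2 h, from 2603 to 457 and 2455 to 461 at 12 h on soft and stiff substrates, and from 2469 to 372 at 12 h against 2 h. They also fell from 120 to 25, 3093 to 941 and 3468 to 1218 for the difference between removals. Leaving out 1 library gave 138 to 300 at 2 h of PD03 removal on soft and 207 to 360 on stiff substrates (366 with all), and 2591 to 4046 at 12 h on soft substrates (3944 with all). It gave 0 to 5, 5 to 28 and 12 to 122 for soft against stiff at 0 h, 2 h and 12 h of PD03 removal, and 0 to 2 at 2 h and 0 to 3 at 12 h for the difference in response. In CHIRON removal it gave 8 to 41 at 2 h, 1376 to 2794 and 1295 to 2508 at 12 h on soft and stiff substrates, 1310 to 2694 at 12 h against 2 h, 0 to 12 for soft against stiff at 0 h and 0 to 10 for the difference in response at 12 h. For the difference between removals at 2 h it gave 48 to 164. In PD03 removal the members with the fewest counts, *Spred3* and *Spry1*, had the widest intervals.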

Other observations

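The 0 h groups of the experiments were nominally alike, in 2i + LIF, yet their levels differed when all 23 libraries were normalised together. *Spred2* had 33.9 CPM on soft and 35.1 CPM on stiff substrates at 0 h of PD03 removal, and 155 and 154 CPM at 0 h of CHIRON removal. *Spred1* went the other way, with 113 and 116 CPM in PD03 removal against 47.2 and 44.2 CPM in CHIRON removal. *Spry4* had 19.0 and 25.0 CPM against 45.0 and 52.8 CPM. On soft substrates the log2 difference was −2.19 for *Spred2*, 1.25 for *Spred1* and −1.23 for *Spry4*. The median of its size over all genes was 0.69, and 6.89% of all genes were at least as far apart as *Spred2*, 23.6% as *Spred1* and 24.2% as *Spry4*. The other 4 members lay nearer the median or below it, with 46.3% of all genes at least as far apart as *Spry1*, 57.7% as *Spred3*, 65.6% as *Spry2* and 76.5% as *Il17rd*. The experiment and anything else that differed between the sets of libraries cannot be told apart, and no test was made.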
